A study of Mus musculus with 53 samples.

Results

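DP cells carried GATA6 at 443 regions that lacked a GATA6 peak in naive extra-embryonic endoderm (nEnd) and a SOX2 peak in DP cells. DP, or double-positive, cells express SOX2-GFP and GATA6-mCherry together. The regions were defined by the peak lists themselves. Peaks of 3 DP and 2 nEnd GATA6 libraries were merged where they overlapped by 1 bp, which gave 39910 regions. Of these, 3457 held peaks of at least 2 DP libraries. Among those 3457, 708 held no nEnd peak (20.5%), and 443 of the 708 overlapped no peak of the 3 DP SOX2 libraries. They are called DP-restricted below, and the count itself is a consequence of the rule, so it was not tested. The 1550 regions that met the same criteria but held a peak of at least 1 nEnd library are called shared.

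GATA6 is a zinc-finger transcription factor of the primitive endoderm (PrE) that binds GATA-containing DNA, and SOX2 is a partner of OCT4 in the pluripotent epiblast. Cells of the early inner cell mass express both factors before the lineages separate. H3K4me1 marks enhancers whether or not they are active, and H3K27ac marks active enhancers and promoters.

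The libraries were made by CUT&RUN, in which an antibody directs micrococcal nuclease to chromatin and the released DNA is sequenced. All came from SGGC, a double-reporter line of E14JU mouse embryonic stem cells (ESCs) with GFP fused to SOX2 and mCherry fused to GATA6, in clones B9 and B12. ESCs were grown in 2iLIF (a MEK inhibitor, the GSK3 inhibitor CHIR99021 and LIF) or in NACL (Activin A, CHIR99021 and LIF in N2B27). DP cells and cells positive for SOX2 alone (SOX2+) were sorted from KOSR culture, which contains knockout serum replacement, and nEnd was the differentiated endoderm culture. DP GATA6 libraries came from experiments A, A1 and B, all of clone B12, and nEnd GATA6 libraries from B9 and B12. SOX2 was profiled in 2iLIF and NACL (B9 and B12 each) and in SOX2+ and DP cells (A, A1 and B each). H3K27ac and H3K4me1 each had 2 libraries in 2iLIF, NACL, SOX2+ and nEnd and 1 in DP cells (experiment A). Both nEnd H3K4me1 libraries were of clone B9. The 1-clone origin of the KOSR libraries means that population and clone are not crossed for DP cells.

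Labels of the H3K27ac libraries were checked against their peaks within 1 kb of the start sites of 6 pluripotency and 8 PrE genes. The pluripotent and DP libraries held 5 or 6 of the 6 pluripotency genes and the nEnd libraries 3 of 6, with none at Nanog, Esrrb or Sox2 in nEnd. All 8 PrE genes, among them Gata6, Gata4 and Sox17, had a peak in both nEnd libraries, against 3 in DP (Gata6, Dab2 and Pdgfra) and 0 and 1 in SOX2+. The 2iLIF and NACL lists, which were far longer, held 5 to 8 of the 8. GATA6 peaks lay at 3 of the 8 PrE genes in DP library A and at 0 in A1 and B. In nEnd they lay at 5 (B9) and 6 (B12). Read depth is unknown. The GATA6 lists held 8316 (A), 3821 (A1) and 1391 (B) peaks in DP cells and 24223 (B9) and 32510 (B12) in nEnd. Among GATA6 lists, those in which the regions were absent were thus the longer ones. The DP SOX2 lists, in which the regions were absent too, were short, with 4859 (A), 5320 (A1) and 1378 (B) peaks. Pluripotent SOX2 lists held from 8203 (2iLIF B12) to 29623 (NACL B9).

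The sequences of 8 DP-restricted regions are shown first, since the GATA motif AGATAA was the feature most of them had in common. They are the strongest regions near Pprc1, Zbtb20, Pdpn, Tbx3 and Satb1 and the regions nearest to Nr5a2, Lhx1 and Dnmt3a, genes of the pluripotency, PrE and lineage lists. Each line gives 120 bases of the plus strand of GRCm38 (mm10) centred on the position of maximum signal, with AGATAA, or its reverse complement TTATCT, in capitals. The positions are chr19:46053112-46053231 for Pprc1, chr16:43572619-43572738 for Zbtb20, chr4:143306244-143306363 for Pdpn, chr5:119595521-119595640 for Tbx3, chr17:51939260-51939379 for Satb1, chr1:137169139-137169258 for Nr5a2, chr11:84632722-84632841 for Lhx1 and chr12:3888106-3888225 for Dnmt3a.
Pprc1: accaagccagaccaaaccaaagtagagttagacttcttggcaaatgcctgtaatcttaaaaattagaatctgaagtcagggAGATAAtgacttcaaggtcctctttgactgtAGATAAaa
Zbtb20: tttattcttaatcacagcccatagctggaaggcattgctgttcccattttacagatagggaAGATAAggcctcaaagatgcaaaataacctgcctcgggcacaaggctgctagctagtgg
Pdpn: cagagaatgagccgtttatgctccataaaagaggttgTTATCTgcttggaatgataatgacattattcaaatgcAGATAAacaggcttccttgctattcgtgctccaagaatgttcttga
Tbx3: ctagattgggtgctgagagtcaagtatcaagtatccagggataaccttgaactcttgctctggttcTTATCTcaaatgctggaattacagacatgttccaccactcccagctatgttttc
Satb1: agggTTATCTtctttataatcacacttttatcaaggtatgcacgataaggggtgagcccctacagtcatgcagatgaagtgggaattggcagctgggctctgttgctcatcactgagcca
Nr5a2: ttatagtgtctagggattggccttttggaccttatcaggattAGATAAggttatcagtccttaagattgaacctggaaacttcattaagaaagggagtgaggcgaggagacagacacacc
Lhx1: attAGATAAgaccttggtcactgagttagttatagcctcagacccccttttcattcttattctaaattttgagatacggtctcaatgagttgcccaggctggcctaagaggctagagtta
Dnmt3a: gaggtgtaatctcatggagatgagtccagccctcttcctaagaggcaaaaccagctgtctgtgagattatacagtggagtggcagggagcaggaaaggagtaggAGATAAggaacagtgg

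AGATAA was present in either orientation in 357 of the 443 DP-restricted windows of 500 bp (80.6%, 95% exact interval 76.6 to 84.2, counting error only). Windows of the same length 5 kb to the left held it in 28.9% and those 5 kb to the right in 31.6%. In the shared regions the proportion was 88.7%, and in the 15716 regions of both nEnd libraries and no DP library it was 63.3%. The shorter GATAA, which contains part of AGATAA, was found in 93.9% of DP-restricted windows and in 59.8% and 61.2% of the flanking ones.

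The motif lay close to the position of maximum signal. The nearest copy was a median of 17 bp away, and 303 regions (68.4%) had one within 50 bp. At least 2 copies were present in 199 windows (44.9%), 1 copy in 158 and none in 86. In the regions shown above, Zbtb20 had a copy 4 bp from the centre and Tbx3 9 bp, whereas the copies of Satb1, Lhx1 and Dnmt3a lay 47 to 54 bp away. Shared regions had 55.1% with at least 2 copies and a median distance of 16 bp.

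**Figure D1:**
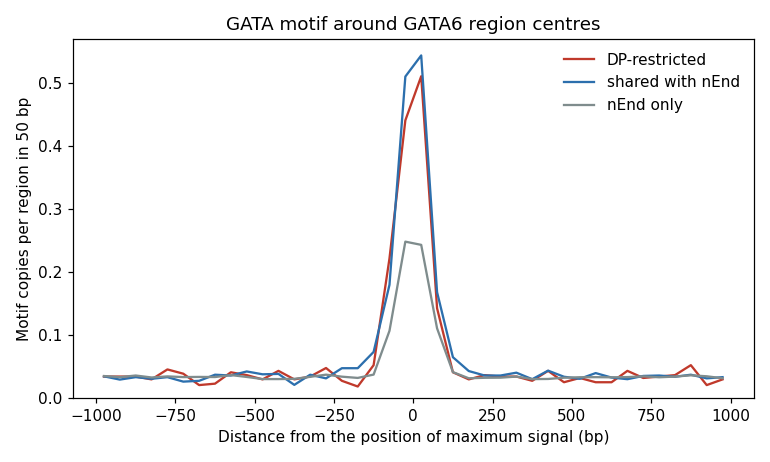
Copies of AGATAA (either strand) per region in 50 bp bins, plotted against the distance in bp from the position of maximum signal, for DP-restricted (red), shared (blue) and nEnd-only (grey) GATA6 regions. The motif peaks at the centre in all classes, and 68.4% of DP-restricted regions have a copy within 50 bp.

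Motifs of other factors were less frequent. TCAAGGTCA, an extended site bound by ESRRB and other orphan nuclear receptors, occurred in 25 DP-restricted windows (5.64%, interval 3.69 to 8.22), beside 0.903% and 0.677% in the flanking windows, 2.19% in shared regions, 7.92% in DP-restricted regions that did overlap a DP SOX2 peak and 5.09% (interval 3.91 to 6.49) in regions shared with nEnd that overlapped one. CCACACCC, a KLF-type site, occurred in 7.0% of DP-restricted windows, 2.48% and 3.16% of flanking windows and 7.74% of shared windows. The SOX core CATTGT was at 27.8% and thus within the interval of the flanking windows (28.9% and 26.6%). The octamer ATGCAAAT, bound by OCT4, was at 4.51%, beside 3.61% and 3.84% in the flanks. TGANTCA, the AP-1 site, was at 12.19%, beside 17.16% and 16.03% in the flanks, and TGTTTAC, a forkhead site, at 5.87%, beside 7.0% on both sides. These motif shares describe letters in the windows and were not tested between classes.

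TCAAGGTCA is shown in the regions nearest to Cnn3 and Igsf21, the regions named by the rule of selection that held it. The lines give 300 bases at chr3:121419042-121419341 and chr4:140407051-140407350 (GRCm38, plus strand), with TCAAGGTCA or its reverse complement TGACCTTGA in capitals. In Cnn3 the motif lay 40 bp from the centre and in Igsf21 108 bp.
Cnn3: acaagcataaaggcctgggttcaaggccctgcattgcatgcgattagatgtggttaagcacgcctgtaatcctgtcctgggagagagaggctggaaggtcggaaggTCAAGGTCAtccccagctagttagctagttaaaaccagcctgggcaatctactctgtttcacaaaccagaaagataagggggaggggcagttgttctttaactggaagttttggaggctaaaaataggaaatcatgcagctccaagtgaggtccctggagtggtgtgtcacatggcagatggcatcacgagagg
Igsf21: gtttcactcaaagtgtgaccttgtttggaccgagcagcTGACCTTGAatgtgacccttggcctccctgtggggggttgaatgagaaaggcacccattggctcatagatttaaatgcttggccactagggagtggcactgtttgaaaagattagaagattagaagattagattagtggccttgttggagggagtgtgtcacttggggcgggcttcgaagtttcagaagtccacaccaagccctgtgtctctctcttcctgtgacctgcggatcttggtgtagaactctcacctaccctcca

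DP-restricted regions ranked, by median signal, above the middle of DP library A and below the middle of A1 and B. Signal was compared only within a library, as the percentile of a peak's maximum coverage among all peaks of that library. The median percentile was 65.1 in A (435 regions), 36.7 in A1 (409 regions) and 40.5 in B (115 regions). Shared regions had medians of 77.9, 54.5 and 50.4. Among DP-restricted peaks, 42 of A (9.66%), 4 of A1 (0.978%) and 1 of B (0.870%) lay in the top 10% of their library, beside 20.5%, 7.12% and 7.57% of shared peaks. Because the same libraries chose the regions, these ranks are a description and carry no test.

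**Figure D2:**
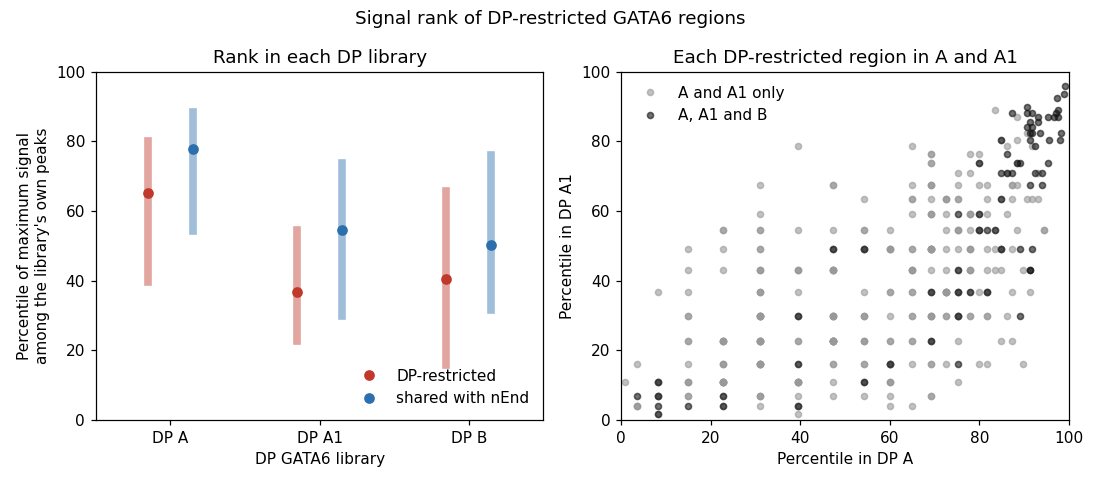
Left, percentile of maximum signal of GATA6 peaks in DP libraries A, A1 and B, with the median (point) and interquartile range (bar) for DP-restricted (red) and shared (blue) regions. Right, percentile in A against percentile in A1 for each DP-restricted region with both peaks, black where B had a peak as well; black points gather at the upper right but reach down to low ranks.

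The regions rested mainly on experiments A and A1. Peaks of A and A1 alone accounted for 328 regions, A and B for 34, A1 and B for 8, and all 3 libraries for 73 (16.5%, against 26.7% of shared regions). Without A the rule left 80 regions, without A1 105, and without the nEnd library B12 769. With each nEnd list held to its 8316 strongest peaks, as many as the longest DP list held, the rule left 922 regions. The label of experiment A's GATA6 library ends in sub02, a term the sources used here do not define. At the edges of the rule, regions with 3 DP libraries had a median mean percentile of 68.3, regions with 2 had 45.1, and the 2284 regions with 1 DP library, which fell outside, had 22.6. The 337 shared regions with a peak in 1 nEnd library had a median nEnd percentile of 51.0, and the 1213 with both had 83.6.

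The strongest DP-restricted region lay in an intron of Pprc1, which encodes a coactivator related to PGC-1, at chr19:46053004-46053424. Its maximum coverage was 58 in A, 40 in A1 and 23 in B, which corresponds to percentiles of 99.10, 96.02 and 94.97. It thus stood near the top of all 3 libraries. The next was an intronic region of Zbtb20, a zinc-finger repressor, with a coverage of 43, 33 and 17 (percentiles 97.3, 92.5 and 85.6). A region 6209 bp downstream of the start of Scgb2b26, a secretoglobin gene, had 42, 28 and 19. The region 6740 bp upstream of Pdpn, which encodes the membrane glycoprotein podoplanin, had 36, 27 and 19.

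The other regions among the 10 strongest lay in introns or between genes. One was in an intron of Prkg1, 24493 bp from the start of Cstf2t, with a coverage of 55 in A, 35 in A1 and 14 in B. Another lay 75088 bp upstream of Tbx3, a T-box factor of the naive pluripotency network that is also linked to endoderm, with 44, 27 and 16. The percentiles of both regions in the 3 libraries lay between 76.2 and 98.8. A region 106030 bp upstream of Satb1, which encodes a chromatin organiser, followed with 29, 28 and 17. The regions near Ttc29 (24 in A, 27 in A1) and Dtnb (27 in A, 24 in A1) had no peak in B. The region in an intron of Prrx1, a homeobox gene of mesenchyme, had 47, 23 and 16.

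Further regions with peaks in all 3 DP libraries lay nearest to Igsf21, Arid2, Rap1gap2, Esrrg, Agbl1, Cfap44 and Nol4, with mean percentiles between 82.8 and 86.1. Arid2 encodes a subunit of the PBAF remodelling complex and Esrrg an orphan nuclear receptor. Satb1 had another DP-restricted region, in an exon 643 bp downstream of its start, with a coverage of 29 in A and 22 in A1. This region was named after its values were seen.

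The distance of the regions from start sites was set beside that of other DP GATA6 regions. The median distance to the nearest transcript start was 10608 bp and 37 regions lay within 1 kb of one (8.35%, interval 5.95 to 11.3), beside 10.4% of all 3457 regions and 11.3% of shared regions. Within 1 kb of a protein-coding start lay 4.29%, beside 8.45% of shared regions and 6.79% of DP-restricted regions with DP SOX2. For protein-coding starts the median was 29623 bp, with quartiles at 7290 and 100642 bp. Shared regions had a median of 14517 bp, and DP-restricted regions with DP SOX2 one of 34595 bp. Beyond 50 kb from a coding start lay 174 DP-restricted regions (39.3%), 22.1% of shared regions, 27.8% of all 3457 and 40.4% of the DP-restricted regions with DP SOX2. The centre was intergenic in 216 regions (48.8%), intronic in 205 (46.3%) and exonic in 22 (4.97%), counting all gene types. These shares were near those over all 3457 regions (47.9%, 47.7% and 4.4%) and, for exons, near the 4.77% of shared regions, of which 42.8% were intergenic and 52.5% intronic.

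Distance to GATA6 in nEnd is a description, since the rule removed every region that overlapped an nEnd peak. The nearest nEnd GATA6 peak was a median of 47937 bp from the centre, with quartiles at 14359 and 157742 bp. It lay within 1 kb in 11 regions (2.48%) and within 10 kb in 85 (19.2%). Among the strongest regions, it lay 3161 bp from that of Pprc1, 2557 bp from Zbtb20, 3820 bp from Pdpn and 2251 bp from Tbx3. Other strong regions were farther from it: 24276 bp for Cstf2t, 22392 bp for Satb1, 19138 bp for Ttc29, 174142 bp for Scgb2b26 and 252362 bp for Prrx1. The DP-restricted regions with DP SOX2, chosen by the same criterion, had a median of 57340 bp, with 2.64% within 1 kb and 21.1% within 10 kb. The nearest coding genes of the 443 regions numbered 398. In 314 regions (70.9%) that gene was also nearest to some nEnd GATA6 region, beside 68.3% of the DP-restricted regions with DP SOX2. Over all 3457 regions it was 93.8%, which includes the regions that held an nEnd peak themselves. In 123 (27.8%) it was nearest to a DP region shared with nEnd, beside 31.7% of those with DP SOX2 and 85.5% of all 3457. Tbx3, for example, was the nearest gene of 1 DP-restricted region, of 4 regions shared with nEnd that carried DP SOX2, and of 21 regions with an nEnd peak. Zbtb20 and Nr5a2 were each nearest to 10 regions with an nEnd peak, whereas Prrx1, Scgb2b26, Igsf21, Cfap44 and Zfp14 were nearest to 0.

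**Figure D3:**
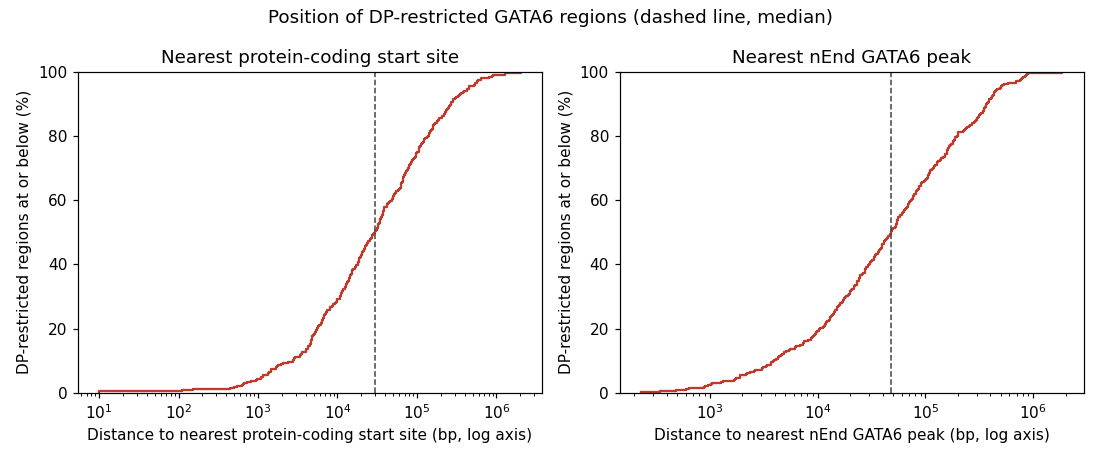
Cumulative share of the 443 DP-restricted regions by distance in bp (log axis) from the position of maximum signal to the nearest protein-coding start site (left) and to the nearest nEnd GATA6 peak (right). Distances under 10 bp are drawn at 10 bp, and dashed lines mark the medians, 29623 and 47937 bp.

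Few of the regions lay nearest to genes of the PrE, pluripotency, lineage, signalling or metabolic lists. Of 125 listed genes, 4 were nearest to a DP-restricted region (4 of 443 regions, 0.903%), beside 3.3% of all 3457 regions and 45 of the 1550 shared regions (2.903%). The PrE list accounted for 1, the region 107247 bp upstream of Lhx1, a LIM homeobox gene of visceral endoderm and mesendoderm. That is 0.226% of DP-restricted regions, beside 12 shared regions (0.774%). The pluripotency list accounted for 2, the Tbx3 region and a region 208751 bp upstream of Nr5a2, an orphan receptor that can activate Pou5f1 (0.451%, beside 10 shared regions, 0.645%). The lineage list accounted for 1, in an intron of Dnmt3a, a de novo DNA methyltransferase, 2717 bp downstream of a start site (0.226%, beside 4 shared regions, 0.258%). Signalling and metabolism and p53 lists had 0, beside 18 (1.16%) and 1 (0.0645%) shared regions.

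These listed regions differed in signal. The Nr5a2 region had percentiles of 80.0 in A and 76.4 in A1, and the Dnmt3a region 77.9 and 54.5. The Lhx1 region had 72.5 in A and 40.5 in B. Neither the Nr5a2 nor the Lhx1 region had H3K27ac in DP cells, while both had H3K4me1 there. The Dnmt3a region had both marks in DP cells and, unlike most, also in both nEnd libraries.

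SOX2 in pluripotent cells was not used to choose the regions. In 2iLIF a SOX2 peak overlapped 3.61% (B9) and 1.58% (B12) of DP-restricted windows and 1.74% and 0.581% of shared windows. In NACL the proportions were 7.22% (B9) and 4.74% (B12) of DP-restricted and 7.23% and 2.77% of shared windows. The source name of the NACL B12 SOX2 library reads IgG, and it is placed here by the medium its title names and the antibody its characteristics list. In SOX2+ cells they were 5.64% (A), 6.77% (A1) and 1.81% (B) of DP-restricted and 2.71%, 3.87% and 0.645% of shared windows. The DP-restricted share was the higher in 6 of 7 libraries and level in NACL B9. The mean gap was 1.69 percentage points ± 1.06 (SD, n = 7 libraries), with an exact two-sided sign-flip p of 0.0312. The adjusted p of this exact test was 0.0521 over 5 tests. That is the smallest adjusted p the 5 tests could give together, so the threshold of 0.05 could not be reached. The surroundings differed in the same direction. In windows 5 kb away SOX2 was the more frequent beside DP-restricted regions in all 7 libraries, with a mean of 2.16% against 1.28% beside shared regions, a gap of 0.879 points. The part of the 1.69 points that is particular to the sites was not tested. In 2iLIF B12 the DP-restricted centre (1.58%) was below its flanks (1.81%). When every list was held to the peak number of the shortest, the mean gap was 0.428 points, with the stronger 50% of each list 0.580, and at regions with all 3 DP GATA6 libraries 3.89. Without DP GATA6 libraries A or A1 it was 3.13 and 3.86, and without the NACL B12 SOX2 library 1.64 points (exact test, adjusted p = 0.0714).

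Both classes stood far below the regions that overlapped a DP SOX2 peak. Those averaged 45.9% ± 9.53 over the 7 libraries when restricted to DP and 39.4% ± 8.59 when shared with nEnd, against 4.48% ± 2.26 for the DP-restricted regions described here. The rule itself split these classes by SOX2 peaks in DP cells, sorted from the same KOSR culture as SOX2+ cells. How far that split, or the short DP SOX2 lists, sets this contrast was not tested. A SOX2 peak of at least 1 pluripotent library lay at 58 DP-restricted regions (13.1%), beside 32.2% of all 3457 regions, which include those with DP SOX2. Of the 58, 26 had it in 1 library only and 16 in 4 or more.

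SOX2 was present in 7 pluripotent libraries at 1 region, in 6 at 2 regions and in 5 at 5 regions. Of these last 5, Pdpn and Tenm4 had the highest mean percentiles in DP cells and are named with the first 3. Zfp14, a zinc-finger gene, had SOX2 in all 7 libraries, at a region 13176 bp from its start. Cnn3, which encodes the actin-binding protein calponin 3, and Avpi1 had it in 6, missing only in 2iLIF B12. Pdpn had it in both NACL and all 3 SOX2+ libraries. Of all 8, 7 carried H3K27ac in DP cells, beside 40.4% of DP-restricted regions and 59.8% of all 3457. All 8 carried H3K4me1 there, beside 72.0% and 86.9%. AGATAA was present in 28 of the 58 regions with pluripotent SOX2 (48.3%, interval 35.0 to 61.8) and in 329 of the 385 without it (85.5%, interval 81.5 to 88.8), and CATTGT in 34.5% and 26.8%. The Zfp14 window held no AGATAA. These shares were not tested.

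In DP cells, DP-restricted regions carried H3K4me1 more often than H3K27ac. H3K4me1 of DP experiment A overlapped 319 regions (72.0%, interval 67.6 to 76.1), beside 86.9% of all 3457 regions and 85.9% of shared ones. H3K27ac overlapped 179 (40.4%, interval 35.8 to 45.1), beside 59.8% and 48.6%. Both marks were present at 165 regions (37.2%, against 57.9% of all 3457), H3K4me1 alone at 154 (34.8%), H3K27ac alone at 14 (3.16%) and neither at 110 (24.8%). Over all 3457 regions the last 3 shares were 29%, 1.97% and 11.1%. In shared regions both marks were at 47.2%, H3K4me1 alone at 38.7%, H3K27ac alone at 1.35% and neither at 12.7%. Regions with 3 DP GATA6 peaks had H3K27ac in 61.6% and H3K4me1 in 82.2%, those with 2 in 36.2% and 70.0%. There is 1 DP library per mark, so no test was made, and it comes from an experiment that also chose the regions.

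In DP cells both marks were more frequent at the regions than beside them, in the shared class as well. H3K4me1 overlapped 72.0% of central windows and 22.7% of windows 5 kb to either side, a difference of 49.3 points, and H3K27ac 40.4% and 12.0%, a difference of 28.4. In shared regions the same differences were larger, 53.9 points for H3K4me1 and 34.7 for H3K27ac. In SOX2+ cells from the same culture, H3K4me1 was at 24.6% (A) and 31.4% (B) of DP-restricted regions and H3K27ac at 9.03% and 9.48%. The SOX2+ flanks were at 15.01% and 15.46% for H3K4me1 and 4.85% and 3.84% for H3K27ac. H3K4me1 in DP but in no SOX2+ library was seen at 174 regions (39.3%), beside 37.3% of all 3457 and 45.4% of shared regions. H3K27ac in DP but in no SOX2+ library was seen at 132 (29.8%), beside 39.9% and 36.2%. The DP lists were longer (130749 H3K4me1 and 76260 H3K27ac peaks, against 58085 and 78354, and 13514 and 14722, in SOX2+). With lists of equal length (18627 peaks for H3K4me1 and 13514 for H3K27ac, chosen after seeing the data), the DP shares were 31.6% and 17.4% and the SOX2+ shares 16.5% and 17.2%, and 9.03% in both. The DP value was thus still the higher, by less.

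In 2iLIF and NACL, whose lists were the longest, H3K27ac overlapped 44.7% (B9) and 52.4% (B12) of DP-restricted regions in 2iLIF and 44.0% and 45.4% in NACL. Those lists cover 359 to 588 Mb of the genome, and windows 5 kb away were at 29.01% and 44.70% in 2iLIF and 32.8% and 34.3% in NACL. With lists of 13514 peaks the H3K27ac shares were 14.2% and 16.9% in 2iLIF and 15.80% and 13.9955% in NACL, beside 17.4% in DP. H3K4me1 was at 19.9% and 33.2% in 2iLIF and 17.6% and 15.8% in NACL, with flanks at 9.37% to 20.3%. H3K27ac in all 4 of these libraries was found at 120 regions (27.1%), beside 44.8% of all 3457 and 36.1% of shared regions. H3K4me1 in all 4 was found at 45 (10.2%), beside 16.8% and 13.03%. A total of 129 regions (29.1%) had no H3K27ac in any pluripotent library, beside 17.7% of all 3457 and 22.3% of shared regions. Of the 129, 22 had it in DP cells, which is 4.97% of DP-restricted regions, beside 3.59% of all 3457 and 3.42% of shared ones.

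**Figure D4:**
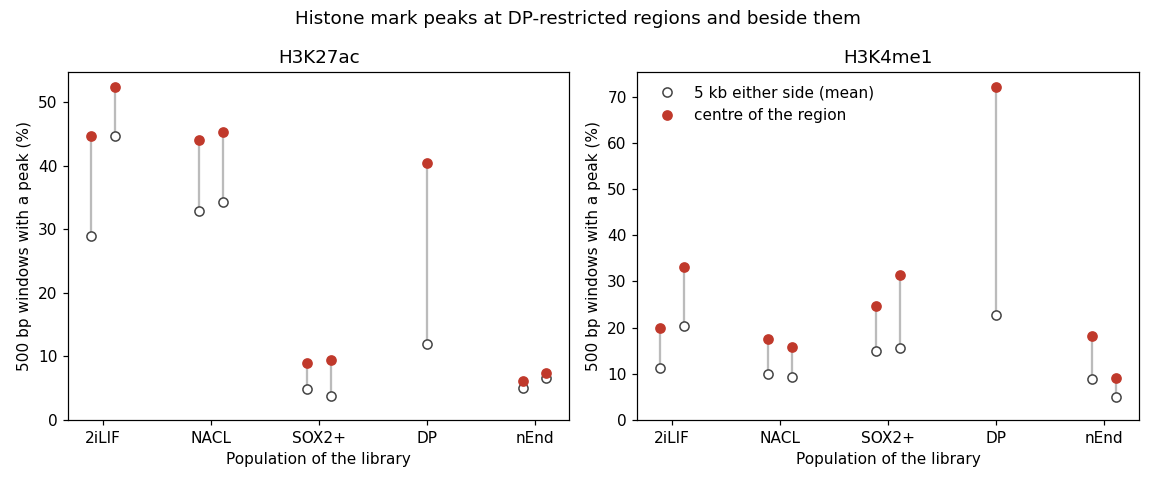
Share of 500 bp windows with an H3K27ac (left) or H3K4me1 (right) peak at the centre of the 443 DP-restricted regions (red) and, as the mean of both sides, 5 kb away (open circles), 1 pair of points per library. The distance between them is greatest in DP cells and, for H3K27ac, smallest in nEnd.

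Compared with shared regions, DP-restricted regions had each mark less often in each of the 6 pluripotent libraries. The H3K27ac gap averaged -6.81 percentage points ± 5.90 (SD, n = 6), from -16.6 in NACL B12 to -0.325 in SOX2+ A. The exact two-sided sign-flip p was 0.0312, the smallest that 6 libraries allow, and the adjusted p was 0.0521. The H3K4me1 gap averaged -5.73 points ± 2.305 (SD, n = 6), from -8.04 to -1.81, with the same exact p and adjusted p. Neither could pass the threshold of 0.05, since 0.0521 was the smallest adjusted p that the 5 exact tests could give together. Windows 5 kb away were also lower beside DP-restricted regions in each of the 6 libraries, by a mean gap of -4.51 points for H3K27ac and -4.41 for H3K4me1, so that a gap of similar direction lay outside the regions. With each list held to the peak number of the shortest, the gaps were -2.43 points for H3K27ac and -3.64 for H3K4me1. With the stronger 50% of each list the H3K4me1 gap was -3.36. Without DP GATA6 library A the H3K27ac gap was -4.43, and without A1 the H3K4me1 gap was -8.69. In DP cells the gaps were -8.17 points for H3K27ac and -13.9 for H3K4me1.

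In nEnd, both marks were scarce at DP-restricted regions. H3K27ac overlapped 6.09% (B9) and 7.45% (B12) of them, and 45.2% and 50.8% of shared regions. The values 5 kb away were 4.97% and 6.66%, so the centre exceeded its flanks by 1.13 and 0.790 points. Beside shared regions the flanks were at 20.7% and 27.3%. H3K4me1 overlapped 18.1% and 9.03% of DP-restricted and 67.7% and 54.5% of shared regions, with flanks at 8.92% and 4.97% and at 31.0% and 20.5%. H3K27ac in both nEnd libraries was present at 18 regions (4.06%), beside 38.2% of all 3457, and H3K4me1 in both at 37 (8.35%), beside 47.4%. No mark of any nEnd library was found at 350 regions (79.0%), beside 29.4% of all 3457, 22.1% of shared regions and 67.9% of the DP-restricted regions with DP SOX2. Both marks in DP together with none in nEnd was the state of 104 regions (23.5%), beside 10.6%, 6.06% and 35.8% in the same order. Within the shared class, H3K27ac of any nEnd library lay at 25.5% of regions with 1 nEnd GATA6 library and at 63.4% of those with both.

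The nEnd gap between the classes was the larger. It averaged -41.3 points ± 3.01 (SD, n = 2) for H3K27ac and -47.6 ± 3.01 (SD, n = 2) for H3K4me1. In windows 5 kb away the gap was -18.2 points for H3K27ac and -18.8 for H3K4me1. The difference from the pluripotent libraries was -34.5 points for H3K27ac and -41.8 for H3K4me1, and the nEnd and pluripotent values did not overlap. The exact permutation p, two-sided, was 0.0714 for each, which is the smallest p that 2 against 6 libraries allow, and the adjusted p was also 0.0714. The design thus could not reach 0.05. The shared class was chosen by GATA6 peaks in nEnd cultures of the same clones, and how far this sets the nEnd marks was not tested.

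**Figure D5:**
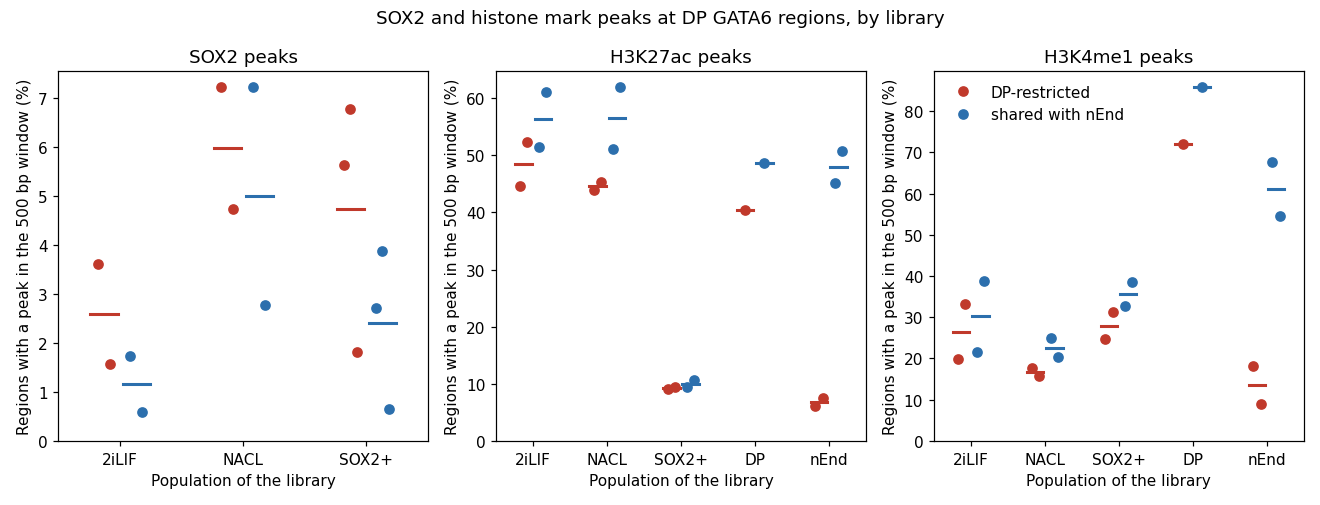
Share of DP-restricted (red) and shared (blue) GATA6 regions whose 500 bp window overlaps a SOX2, H3K27ac or H3K4me1 peak, with 1 point per library and a line at the mean of each population. In nEnd, DP-restricted regions are at 6.09% and 7.45% for H3K27ac while shared regions are at 45.2% and 50.8%.

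Single regions followed different courses across the populations. The Zbtb20 region had H3K27ac in both 2iLIF, both NACL and the DP library and in no nEnd library, and H3K4me1 in DP and in both 2iLIF, both SOX2+ and both nEnd libraries. The Prrx1 and Esrrg regions had no H3K27ac in any 2iLIF, NACL, SOX2+ or nEnd library but had it in DP cells, and their H3K4me1 peaks came from the DP library and 1 SOX2+ library. The Pprc1 region had H3K27ac in 1 2iLIF library and in DP. The Scgb2b26 region had neither mark in DP. The Tbx3 region had H3K27ac in both SOX2+, both 2iLIF, 1 NACL, the DP and 1 nEnd library.

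A small number of the regions lay close together or shared sequence. In all, 5 bins of 1 Mb held 5 or more DP-restricted regions, 30 together. The same bins held 6 shared regions, and 57 DP GATA6 regions in total. Zfp990 was nearest to 4 DP-restricted regions and to 4 more that had DP SOX2. Of the 30, 18 lay on chromosome 4 between 145 and 148 Mb, in a cluster of zinc-finger genes such as Zfp990, Zfp981 and Zfp982. Another 7 lay on chromosome 13 between 12 and 13 Mb, at the Prl2c genes of the placental prolactin family, and 5 on chromosome 1 between 85 and 86 Mb. By shared 20-letter words, 15 regions matched another one, 7 of them 1 family spread over 7 chromosomes with 69.4% soft-masked (repeat) letters. How reads of such multi-copy sequence were placed was not tested. Over all 443 windows 23.3% of letters were soft-masked, beside 29.8% and 33.4% in the flanks and 18.4% in shared regions, and GC content was 43.1% against 45.4% in shared regions. Without the 41 regions that shared sequence or lay in these bins, the SOX2 gap was 1.37 points, the H3K27ac gap -7.80 and the H3K27ac difference of nEnd from pluripotent libraries -33.3.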

How the data were processed

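Per the labels and the study's methods, the authors trimmed CUT&RUN reads with Cutadapt 1.18, aligned them with Bowtie2 2.3.4.1, processed them with SAMtools 1.9, Picard 2.9.1, bedtools 2.27.1 and deepTools 3.2.0 (versions from the submitters' processing notes), with SEACR peak calls made for each library over an IgG control. The deposited lists give position on mm10 (GRCm38) and, as coverage signal on each library's own scale, the total and the maximum per peak. Histone lists are named relaxed and transcription factor lists stringent, whereas the methods state the opposite. Read depth is unknown, so signal was ranked only within a library.

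Peaks on chromosomes 1 to 19, X and Y from 33 assigned libraries were used; 18 IgG samples were not used here and 2 libraries whose labels name different populations entered no comparison. The NACL B12 SOX2 library, whose source name reads IgG, was used. A region was centred on the maximum of its strongest DP peak, and overlap with another peak by 1 bp was scored in a 500 bp window. Start sites came from GENCODE M21, sequence from RefSeq's GRCm38.p6. Exact two-sided sign-flip and permutation tests over libraries used Python 3.11.15 and numpy 2.4.6, with Benjamini-Hochberg adjustment over 5 tests. Clopper-Pearson intervals (95%) cover counting error only. Libraries share clones and experiments, so p-values measure the spread between these libraries. The steps were tested on simulated peak lists. Named regions were the 10 with the highest mean percentile, up to 15 with all 3 DP peaks, those nearest to listed genes and up to 5 with the most pluripotent SOX2 libraries. The regions and lists were chosen with earlier results of these data known. Alternatives covered overlap, thresholds, peak numbers, region sets and each library left out. Windows beside the regions for histone marks, equal list lengths across populations, the background of each count of marks and positions and the set without repeated sequence were chosen after seeing the data.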

Additional observations from a re-analysis of the deposited data

Results flagged for a closer look

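Labels conflicted for 2 KOSR libraries of experiment B, whose titles name DP cells and whose source names give SOX2+ cells, so they entered no comparison. Their values are given because the comparisons did not use them. The H3K4me1 library (94492 peaks) overlapped 49.7% of the DP-restricted regions and 61.9% of the shared ones, with windows 5 kb away at 19.5% and 25.5%. The H3K27ac library (19185 peaks) overlapped 13.8% and 17.3%, with 7.45% and 7.58% in the windows 5 kb away. No control library was set beside them.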

How the results depend on the processing

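The number of DP-restricted regions depended on the rule. It was 2727 with a peak in any DP library, 73 with peaks in all 3, 278 with the stronger 50% of each list, 922 with nEnd lists held to the 8316 peaks of the longest DP list and 708 without the DP SOX2 criterion, and it ranged from 80 to 769 when 1 library was left out. It stayed within 1.5 times of 443 under the other alternatives. The share within 1 kb of a start site was 4.29% for protein-coding starts, and GATAA in place of AGATAA gave 93.9% of windows. The 5 gaps kept their direction under every alternative run. None could pass the threshold, since 0.0521 was the smallest adjusted p that the 5 exact tests could give together. Adjusted p-values of these tests ranged from 0.0521 to 0.0714 for SOX2 and H3K4me1 in pluripotent libraries. For H3K27ac they ranged from 0.0521 to 0.219. The highest of these came without DP GATA6 library A or A1. With the clone as replicate block, pairing nEnd B9 and B12 with 2iLIF and NACL of the same clone, the H3K27ac difference was -31.4 points (exact p = 0.5, the smallest 2 pairs allow). No such pairing could be made for H3K4me1, since both nEnd libraries are of B9. Unknown read depth and peak numbers that differ between libraries limit comparisons of absolute shares.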
